A study of Homo sapiens with 17 samples.

Results

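The small subunit of the cytosolic ribosome is built from 1 ribosomal RNA and a set of proteins whose mRNAs are described here by their Ribo-STAMP editing and by their abundance with nuclear and cytoplasmic poly(A)-binding proteins. Members were the protein-coding genes named RPS followed by a number, with an optional A, X or L, together with RPSA and FAU. This gave 33 genes of the 18869 in the table, and all 33 reached 5 TPM in each IP. RPS2 is also carried by the editing construct, so it is given apart, and summaries cover the other 32 genes.

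The study used stable lentiviral lines of HEK293T, an established human embryonic kidney line. RPS2-STAMP cells express the cytidine deaminase APOBEC1 fused to RPS2, which leaves C-to-U edits in RNA near the small subunit, and Control-STAMP cells express APOBEC1 alone. Both constructs were induced with 50 ng/mL doxycycline for 24 h and the cells were crosslinked with 0.1% formaldehyde. RNA was then sequenced from the Input and from IPs of PABPN, the nuclear poly(A)-binding protein, and of PABPC, its cytoplasmic counterpart. RPS2-STAMP had 3 samples each of Input, PABPN IP and PABPC IP, and Control-STAMP had 3 of Input, 3 of PABPN IP and 2 of PABPC IP, 17 in all. The IPs are described by the authors as made from cytoplasm alone, and the Input as cytoplasmic too. The sample labels do not name this step. Of the HEK293T markers, VIM had an Input TPM of 184, NEFL 26.9, KRT18 24.8, INA 24.1, NEFM 9.0 and KRT8 2.16. PTPRC, CD3E, ALB and HBB, which mark blood and liver, have no row in the table.

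Editing was given as normalized EPKM, edits per kilobase of transcript scaled to the mapped reads of the library, after subtraction of control editing. EPKM is scaled by length and by library size but not by how abundant the transcript is, so it is set beside TPM below. Each gene has 1 pooled EPKM per fraction, and all but 1964 of the 18869 genes, every member included, also have 1 average TPM. Without replicate values, no SD, n or p can be given for any value or difference here. The methods give library sizes for the STAMP experiments as a whole, but reads and edits per gene are not in the files, so the counts behind each value are unknown. Counts of members are therefore read against the share of the 9607 protein-coding genes (PCGs) reaching 5 TPM in each IP that met the same rule.

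Ribosomal protein mRNAs are among the most abundant mRNAs of growing cells, and their protein products are needed in equal amounts. Many begin with a C followed by an unbroken stretch of pyrimidines, the 5′ terminal oligopyrimidine (TOP) motif, through which mTOR signalling and LARP1 set their translation. LARP1 also binds PABPC and the poly(A) tail. The start windows of members with high, low or unusual values are shown to place this motif, each with 10 bases before the RefSeq start and 20 from it (GRCh38.p14). A C at the start followed by at least 4 pyrimidines is in capitals, up to the end of the pyrimidine run, on the strand of the gene.

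RPSA (chr3:39406710-39406739, plus strand): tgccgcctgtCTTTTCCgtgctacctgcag
RPS21 (chr20:62387093-62387122, plus strand): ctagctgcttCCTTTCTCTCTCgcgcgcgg
RPS25 (chr11:119018324-119018353, minus strand): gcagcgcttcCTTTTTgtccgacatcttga
RPS27 (chr1:153990752-153990781, plus strand): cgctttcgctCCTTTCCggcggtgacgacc
RPS24 (chr10:78033853-78033882, plus strand): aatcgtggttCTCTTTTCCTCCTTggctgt
RPS6 (chr9:19380217-19380246, minus strand): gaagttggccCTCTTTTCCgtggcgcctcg
RPS12 (chr6:132814559-132814588, plus strand): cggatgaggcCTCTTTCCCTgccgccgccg
FAU (chr11:65122115-65122144, minus strand): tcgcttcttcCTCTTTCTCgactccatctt
RPS23 (chr5:82278335-82278364, minus strand): cggtgcttctCTCTTTCgctcaggcccgtg
RPS27L (chr15:63157458-63157487, minus strand): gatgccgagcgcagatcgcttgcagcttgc
RPS29 (chr14:49598691-49598720, minus strand): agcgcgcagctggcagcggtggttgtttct
RPS15 (chr19:1438386-1438415, plus strand): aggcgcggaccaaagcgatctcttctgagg
RPS4X (chrX:72277229-72277258, minus strand): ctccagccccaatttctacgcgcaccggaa

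Of the 33 members, 26 had an entry in the RefSeq table, and 19 of these (73.1%) had the motif at 1 or more of their starts. RPS2, RPS15A and RPS20 were among those with no entry. The share was 73.7% for large-subunit genes (28 of 38), 9.68% for mitochondrial small-subunit genes (3 of 31), 7.83% for PCGs (617 of 7884) and 4.07% for all windows of the table (1429 of 35116). RPS15, RPS26, RPS27L, RPS28, RPS29, RPS4X and RPS7 did not have these letters at a listed start. Only the listed start base was used, so a run beginning a few bases away was not counted. In RPS28, such a run begins directly after the listed start base. The 7 can therefore not be taken as mRNAs without a TOP motif. The median EPKM of the 19 genes with the motif was 0.494 (Input), 0.607 (PABPC IP) and 0.184 (PABPN IP). For the 7 without it, the medians were 0.352 (Input), 0.429 (PABPC IP) and 0.120 (PABPN IP). Genes with the motif were also more abundant, with a median TPM of 564 (Input), 1818 (PABPC IP) and 432 (PABPN IP) against 287 (Input), 924 (PABPC IP) and 327 (PABPN IP). Divided by the TPM of the same fraction, a ratio chosen after seeing the data, their median EPKM per 1000 TPM was 0.812 (Input), 0.301 (PABPC IP) and 0.438 (PABPN IP), against 2.78 (Input), 0.445 (PABPC IP) and 0.431 (PABPN IP) without the motif, so that the higher EPKM of motif genes was not seen on this scale in the Input or the PABPC IP, and the PABPN IP values were close.

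RPS2 (ENSG00000140988, chr16:1962058-1964841, minus strand) is a universal protein of the body near the mRNA entry site. Its EPKM was 0.126 (Input), 0.101 (PABPC IP) and 0.447 (PABPN IP), so that editing was highest in the PABPN IP, an order not seen in any of the other 32 genes. Its TPM was 8171 (Input), 27182 (PABPC IP) and 10493 (PABPN IP). In the Input this was 4.52 times the next most abundant member, RPS4X, and 0.957% of all TPM. Reads from the gene and from the RPS2 part of the construct cannot be told apart. The processed pseudogene RPS2P5 had a TPM of 3191 (Input), 10262 (PABPC IP) and 4358 (PABPN IP), and its reads may be shared with RPS2. Per 1000 TPM, the EPKM of RPS2 was 0.0154 (Input), 0.00370 (PABPC IP) and 0.0426 (PABPN IP).

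The first question was how heavily these mRNAs are edited in each fraction. Most small-subunit mRNAs were in the top decile of PCGs by EPKM, with 28 of 32 (Input), 28 (PABPC IP) and 20 (PABPN IP), but not all were, and RPS27L was below the PCG median throughout. Over the 32 genes the median EPKM was 0.526 (Input), 0.536 (PABPC IP) and 0.169 (PABPN IP), against 0.0273 (Input), 0.0501 (PABPC IP) and 0.0334 (PABPN IP) over PCGs. The members' median was 19.3 times the PCG median (Input), 10.7 times (PABPC IP) and 5.07 times (PABPN IP). With all listed PCGs as the background these ratios were 41.9, 19.4 and 8.50. Among the 100 most edited PCGs were 14 members (Input), 21 (PABPC IP) and 8 (PABPN IP). The members were also abundant, with 14, 21 and 13 among the 100 PCGs of highest TPM in the same order. Per 1000 TPM, a ratio added after the data were seen, their median EPKM was below that of PCGs in each fraction. It was 1.01 against 1.61 (Input), 0.357 against 1.38 (PABPC IP) and 0.434 against 0.704 (PABPN IP). The quartiles of the members' EPKM ran from 0.290 to 0.798 (Input), from 0.262 to 0.889 (PABPC IP) and from 0.109 to 0.287 (PABPN IP).

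Members with a high median EPKM over the fractions included RPSA, RPS15A, RPS25 and RPS21. RPSA, a body protein also known as the laminin receptor precursor, had an EPKM of 1.75 (Input), 1.65 (PABPC IP) and 0.959 (PABPN IP). RPS21, which sits beside RPSA in the mature subunit, had 1.89 (Input), 0.886 (PABPC IP) and 0.435 (PABPN IP). These were the highest values of the set in each fraction, RPS21 in the Input and RPSA in both IPs. RPS15A, a universal protein of the body, had 1.15 (Input), 1.38 (PABPC IP) and 0.465 (PABPN IP). RPS25, a head protein needed by several viral internal ribosome entry sites, had 1.15 (Input), 0.978 (PABPC IP) and 0.424 (PABPN IP). Of these 4, RPS15A was the gene with more EPKM with PABPC than in the Input.

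The 5 members with the lowest median were RPS27L, FAU, RPS29, RPS15 and RPS23. FAU, which encodes a ubiquitin-like protein fused to a small-subunit protein, had an EPKM of 0.269 (Input), 0 (PABPC IP) and 0.0628 (PABPN IP). RPS29, a small zinc-binding head protein, had 0.140 (Input), 0.476 (PABPC IP) and 0.120 (PABPN IP). RPS15, a head protein that reaches toward the decoding site, had 0.148 (Input), 0.429 (PABPC IP) and 0.114 (PABPN IP). RPS23, a protein of the decoding centre, had 0.287 (Input), 0 (PABPC IP) and 0.165 (PABPN IP). The other fusion gene, RPS27A, encodes ubiquitin joined to a head protein and had 0.840 (Input), 0.576 (PABPC IP) and 0.246 (PABPN IP). RPS27A lay above the members' median in each fraction and FAU below it.

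The paralogs RPS27 and RPS27L encode zinc-finger proteins of the same coding length, 252 bases without the stop codon, and differ in the start windows shown above. RPS27 had an EPKM of 0.802 (Input), 1.18 (PABPC IP) and 0.270 (PABPN IP). RPS27L had 0.0173 (Input), 0.0256 (PABPC IP) and 0.0151 (PABPN IP), below the PCG median in each fraction. Their TPM differed as well. RPS27 had a TPM of 390.2 (Input), 1818 (PABPC IP) and 291 (PABPN IP), and RPS27L had 5.56 (Input), 15.6 (PABPC IP) and 8.37 (PABPN IP). Per 1000 TPM the pair lay closer together, with an EPKM of 2.06 (Input), 0.647 (PABPC IP) and 0.927 (PABPN IP) for RPS27 and 3.12 (Input), 1.64 (PABPC IP) and 1.81 (PABPN IP) for RPS27L.

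**Figure D1:**
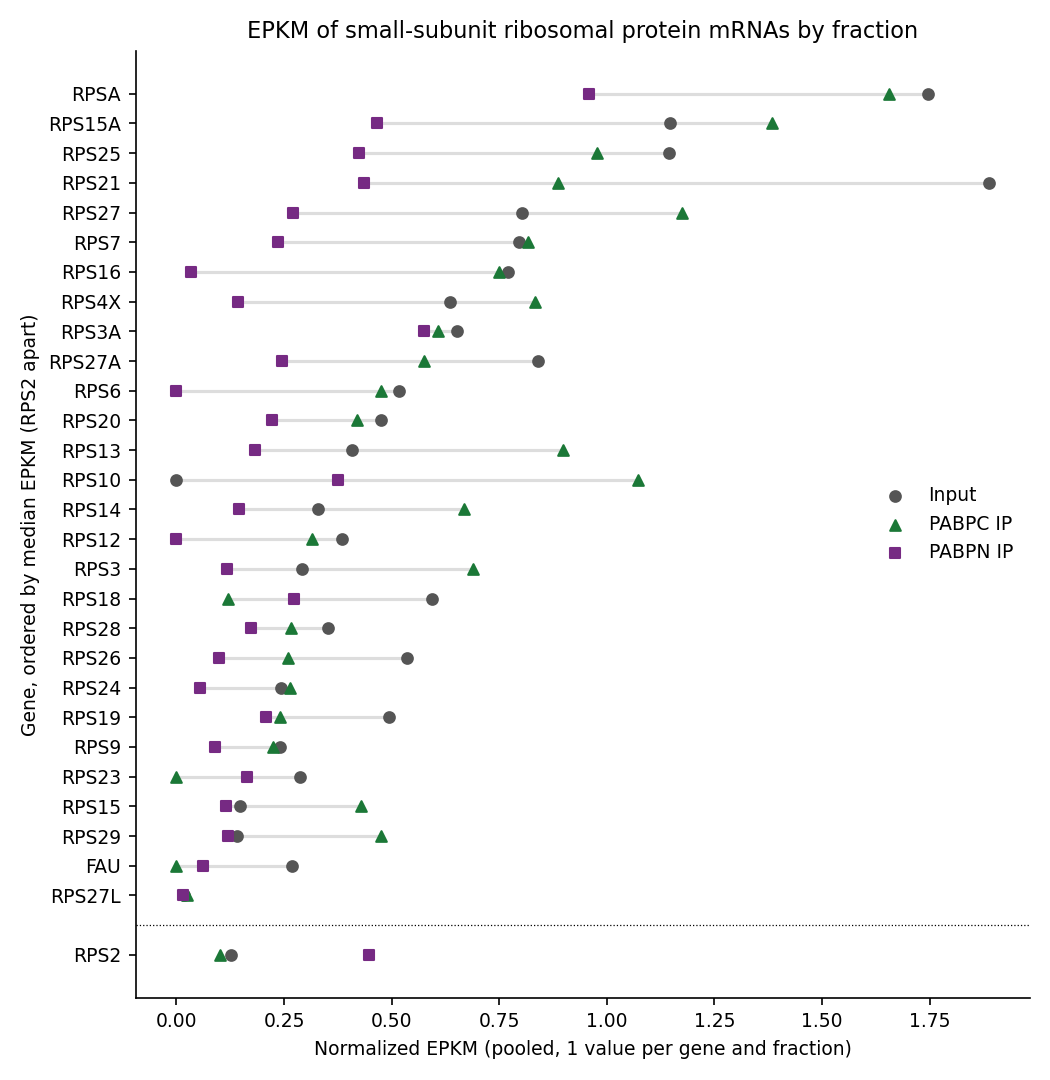
Normalized EPKM of 28 members and RPS2 (horizontal axis, pooled values with no error) in the Input (grey circles), PABPC IP (green triangles) and PABPN IP (purple squares), ordered by the median of the 3 values, with RPS2 below the dotted line. The PABPN IP value is the lowest of the 3 in 24 of the 28 members above the line, and RPS2 has its highest value there.

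The main comparison of the study sets editing with PABPC against editing with PABPN. EPKM was higher in the PABPC IP for 29 of the 32 members, a share of 90.6%, against 56.4% of PCGs. The median difference was 0.370 EPKM, against 0.0108 over PCGs. Per 1000 TPM, as described below, 14 of the 32 were higher with PABPC, against 59.5% of PCGs. The members' median difference on that scale was -0.131. On the log2(EPKM + 0.01) scale, 21 members were higher with PABPC by 2-fold or more (36.3% of PCGs) and 3 were lower by as much (21.1% of PCGs). Of the 21, RPS6 and RPS12 were listed at 0 in the PABPN IP. With a pseudocount of 0.1, 17 were higher (9% of PCGs) and 1 was lower (3.71% of PCGs).

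Large differences in favour of PABPC were those of RPS15A, RPS27, RPS16 and RPS13. RPS16, a head protein whose tail reaches the P-site tRNA, had an EPKM of 0.771 (Input), 0.749 (PABPC IP) and 0.0331 (PABPN IP). Its PABPC IP value lay near that of the Input and its PABPN IP value near the PCG median. RPS13, a body protein at the face toward the large subunit, had 0.409 (Input), 0.897 (PABPC IP) and 0.184 (PABPN IP). Each of these 4 was above the members' median in the PABPC IP.

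EPKM was lower in the PABPC IP in 3 members, RPS23, RPS18 and FAU. RPS18, a head protein that contacts the large subunit, had an EPKM of 0.595 (Input), 0.120 (PABPC IP) and 0.273 (PABPN IP). RPS23 and FAU, given above, were listed at 0 in the PABPC IP. The smallest differences in favour of PABPC were those of RPS27L and of RPS3A, a body protein with an EPKM of 0.652 (Input), 0.607 (PABPC IP) and 0.576 (PABPN IP). How differences below 0 after subtraction of the control were entered is not stated. Besides RPS23 and FAU, 3 members were listed at 0 in a fraction. RPS12, a head protein, had 0.384 (Input), 0.315 (PABPC IP) and 0 (PABPN IP), and RPS6, the main target of S6 kinase, had 0.517 (Input), 0.474 (PABPC IP) and 0 (PABPN IP). RPS10, a head protein that ZNF598 marks with ubiquitin when ribosomes collide, had 0 (Input), 1.07 (PABPC IP) and 0.376 (PABPN IP). Among members above 0 in all 3 fractions, the median difference between the IPs was 0.384 EPKM.

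The other members shown each had more EPKM with PABPC than with PABPN. RPS7, a body protein also known for binding MDM2, had an EPKM of 0.797 (Input), 0.816 (PABPC IP) and 0.235 (PABPN IP). RPS14, a platform protein lost with part of chromosome arm 5q in a myelodysplastic syndrome, had 0.329 (Input), 0.669 (PABPC IP) and 0.146 (PABPN IP). RPS9, a body protein that bears on the accuracy of decoding, had 0.241 (Input), 0.224 (PABPC IP) and 0.0887 (PABPN IP). RPS19, a head protein often mutated in Diamond-Blackfan anaemia, had 0.494 (Input), 0.240 (PABPC IP) and 0.208 (PABPN IP). RPS20, a head protein near the mRNA entry side, had 0.474 (Input), 0.420 (PABPC IP) and 0.223 (PABPN IP). RPS26, which lines the mRNA exit channel, had 0.535 (Input), 0.260 (PABPC IP) and 0.0980 (PABPN IP), and RPS28, a head protein beside that channel, had 0.352 (Input), 0.266 (PABPC IP) and 0.174 (PABPN IP). RPS7 was the highest of these in both IPs.

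Against the Input, the IPs differed from each other. In the PABPC IP, 13 members had a higher EPKM than in the Input and 19 a lower one, while 57.3% of PCGs were higher. The median difference was -0.0427 EPKM in members and 0.0104 in PCGs, and the members' mean difference was -0.00652. At least 2-fold higher were 7 members (35.1% of PCGs), among them RPS3, RPS10, RPS13, RPS14, RPS15 and RPS29. At least 2-fold lower were also 7 (19.5% of PCGs), among them RPS18, RPS19, RPS21, RPS23, RPS26 and FAU. RPS3, a head protein at the mRNA entry channel, had an EPKM of 0.291 (Input), 0.689 (PABPC IP) and 0.117 (PABPN IP). RPS21 lay furthest below its Input value, with a difference of -1.0 EPKM.

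In the PABPN IP, 1 member had a higher EPKM than in the Input, RPS10, which was listed at 0 in the Input, while 45.2% of PCGs were higher. The median difference was -0.304 EPKM in members and 0 in PCGs. At least 2-fold lower were 23 members (29.6% of PCGs), and at least 2-fold higher was 1 (28.4% of PCGs). Over the 3 fractions, the Input held the highest EPKM in 19 members (59.4%, against 26.6% of PCGs). The PABPC IP held it in 13 (40.6%, close to the 42.6% of PCGs). The PABPN IP held the lowest in 28 of the 32, against 34.5% of PCGs. The Input is the same in both comparisons, so these are not independent of each other.

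TPM shows how the mRNAs themselves divided between the IPs. Ratios were taken as log2(TPM + 0.5) and centred on the PCG median, and 0.5 was used as the threshold for enrichment or depletion. In the PABPC IP over the Input, 31 of 32 members were above 0.5, against 9.02% of PCGs, and none was below -0.5 (17.4% of PCGs). The exception was RPS27L, at 0.46. The median was 0.70, with quartiles of 0.61 and 0.78. Above 1 in place of 0.5 were 2 members, against 0.0625% of PCGs. RPS27 had the highest ratio, 1.27, and RPS21 was also high at 0.99. RPS4X, an X-linked body protein, was low at 0.57.

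In the PABPN IP over the Input, all 32 members were below -0.5, against 20.6% of PCGs, and none was above 0.5 (23.7% of PCGs). The median was -1.22. Lowest were RPS3 at -1.98, RPS4X at -1.67 and RPS18 at -1.66, and near the upper end were RPS27L at -0.56 and RPS29 at -0.60. These values depend on the centring, since PCG TPM was shifted by 1.10 in the PABPN IP and by 0.95 in the PABPC IP against the Input. Without centring, the members' median in the PABPN IP was -0.12, with 20 members lower and 12 higher than in the Input, and that in the PABPC IP was 1.66, with all 32 higher.

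Between the IPs, all 32 members were above 0.5 in favour of PABPC, against 29.9% of PCGs, and none was below -0.5 (31.1% of PCGs). The median was 1.97, and 1.78 without centring. RPS27 had the highest ratio, 2.83, which was rank 1 of the 9607 PCGs. Next among the members were RPS3 at 2.63 and RPS18 at 2.45. RPS27L had the lowest, 1.05, and RPS24, which has alternatively spliced last exons, was low at 1.28. For RPS2 the ratio was 1.56.

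Levels in the remaining named members give the scale of these ratios. RPS3 had a TPM of 693 (Input), 2049 (PABPC IP) and 377 (PABPN IP). RPS18 had 854 (Input), 2803 (PABPC IP) and 583 (PABPN IP), with more TPM and less EPKM with PABPC than with PABPN. The members' TPM summed to 2.42% of the Input, 6.68% of the PABPC IP and 1.97% of the PABPN IP. The EPKM of RPS24 was 0.243 (Input), 0.263 (PABPC IP) and 0.0559 (PABPN IP). For RPS4X it was 0.636 (Input), 0.833 (PABPC IP) and 0.142 (PABPN IP).

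**Figure D2:**
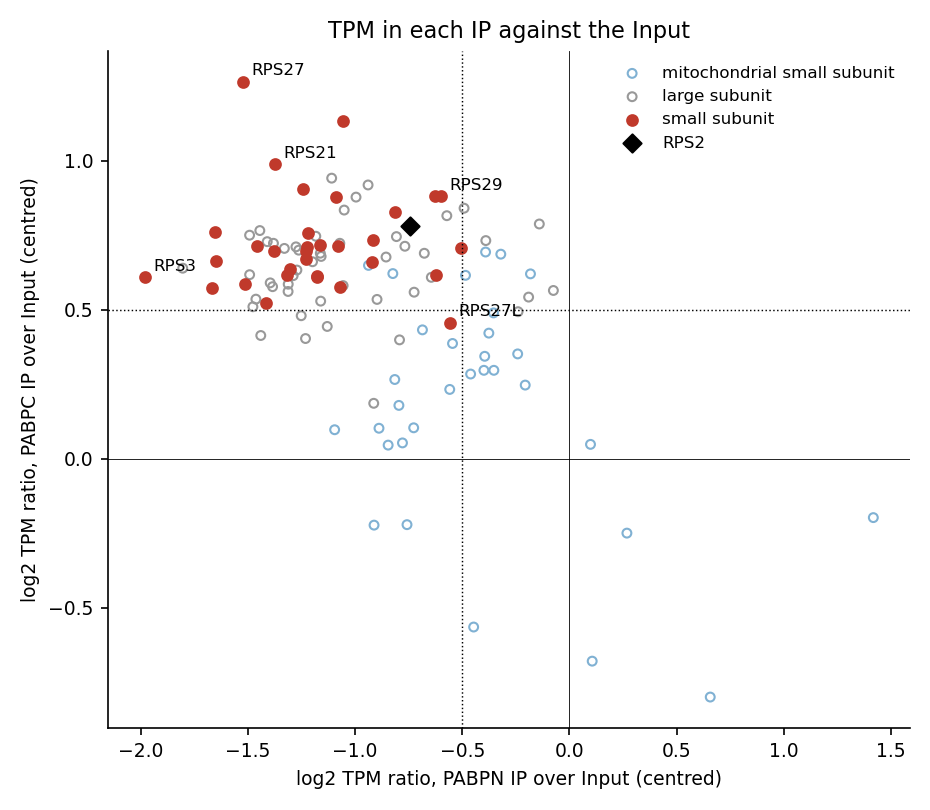
Centred log2 TPM ratio of the PABPC IP over the Input (vertical axis) against that of the PABPN IP over the Input (horizontal axis) for small-subunit (red), large-subunit (grey circles) and mitochondrial small-subunit genes (blue circles) and RPS2 (black diamond), with dotted lines at 0.5 and -0.5. Of the small-subunit genes, 31 of 32 lie above and to the left of both dotted lines, and RPS27L lies just below the horizontal one. Both axes share the Input.

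Because both EPKM and TPM of the members were higher with PABPC, EPKM was also divided by the TPM of the same fraction, a ratio added after the data were seen. The median EPKM per 1000 TPM was 1.01 (Input), 0.357 (PABPC IP) and 0.434 (PABPN IP). It was higher with PABPC than with PABPN for 14 of the 32 members and lower for 18, with a median difference of -0.131. Of PCGs, 59.5% were higher, with medians of 1.61 (Input), 1.38 (PABPC IP) and 0.704 (PABPN IP). The higher EPKM of the members in the PABPC IP was thus not seen per TPM, and the median difference had the opposite sign; the cause was not tested. Against the Input, the ratio was higher for 1 member in the PABPC IP (42.4% of PCGs) and for 1 in the PABPN IP (30.8% of PCGs), RPS10 in both. The TPM averages include intronic reads, and whether they pool both cell lines is not stated, though the authors used samples of both lines together for their own enrichment calls.

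Members differed in which side of this comparison they took. RPS16 had an EPKM per 1000 TPM of 1.19 (Input), 0.383 (PABPC IP) and 0.0585 (PABPN IP), higher with PABPC on this scale too. RPSA had 1.01 (Input), 0.301 (PABPC IP) and 0.545 (PABPN IP), lower with PABPC. RPS29 had the highest ratio in both IPs, 4.60 (Input), 4.35 (PABPC IP) and 2.77 (PABPN IP). It was also the second least abundant member, with a TPM of 30.4 (Input), 109 (PABPC IP) and 43.3 (PABPN IP).

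**Figure D3:**
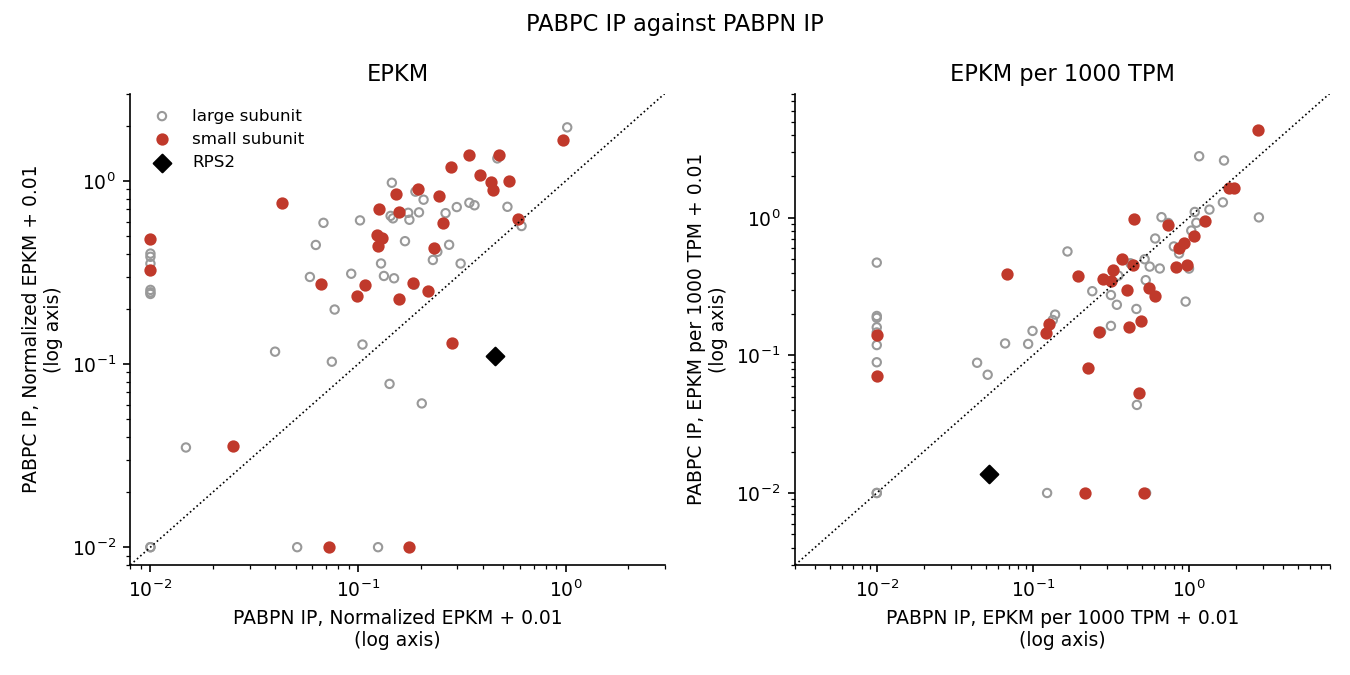
PABPC IP (vertical axes) against PABPN IP (horizontal axes) for small-subunit (red), large-subunit (grey circles) and RPS2 (black diamond) mRNAs, as normalized EPKM + 0.01 (left) and as EPKM per 1000 TPM + 0.01 (right), on log axes with a dotted line of equality. On the left 29 of 32 small-subunit genes lie above the line, and on the right 14 do.

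Large-subunit mRNAs encode the other proteins of the same ribosome. Of 49 large-subunit genes, 48 reached 5 TPM in each IP, and their EPKM medians were 0.420 (Input), 0.368 (PABPC IP) and 0.133 (PABPN IP), so that the small-subunit median was higher by 0.106, 0.169 and 0.0369 EPKM in the same order. This difference was not tested. EPKM was higher with PABPC than with PABPN for 41 of the 48 (85.4%, close to the members' share), and 41 were enriched with PABPC over the Input by TPM. In TPM between the IPs, all 48 were above 0.5 in favour of PABPC, with a median of 1.89. In the PABPN IP over the Input, 42 of the 48 were below -0.5, with a median of -1.16. These TPM patterns were thus shared by both subunits. Per 1000 TPM, 25 of the 48 were higher in the PABPC IP and 21 lower.

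Mitochondrial small-subunit proteins are made on cytosolic ribosomes, and their mRNAs were unlike the members in EPKM but shared the direction of the TPM ratio between the IPs. Of 33 genes, 32 passed the TPM minimum, with a median EPKM of 0.0467 (Input), 0.0364 (PABPC IP) and 0.0339 (PABPN IP). EPKM was higher in the PABPC IP for 13 of 32, and 6 of 32 were enriched with PABPC over the Input by TPM. Between the IPs, 25 of 32 were above 0.5 in favour of PABPC, with a median of 0.84, below that of the members. TOP-class translation genes, such as EEF1A1, EEF2 and PABPC1, had medians of 0.238 (Input), 0.164 (PABPC IP) and 0.131 (PABPN IP) over 18 of 19 genes, with 10 of 18 higher in the PABPC IP. Of the list of 40S assembly and quality factors, 14 of 15 names were in the table, and their medians of 0.0279 (Input), 0.0448 (PABPC IP) and 0.0309 (PABPN IP) lay near those of PCGs. EPKM was higher in the PABPC IP for 8 of these 14.

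**Figure D4:**
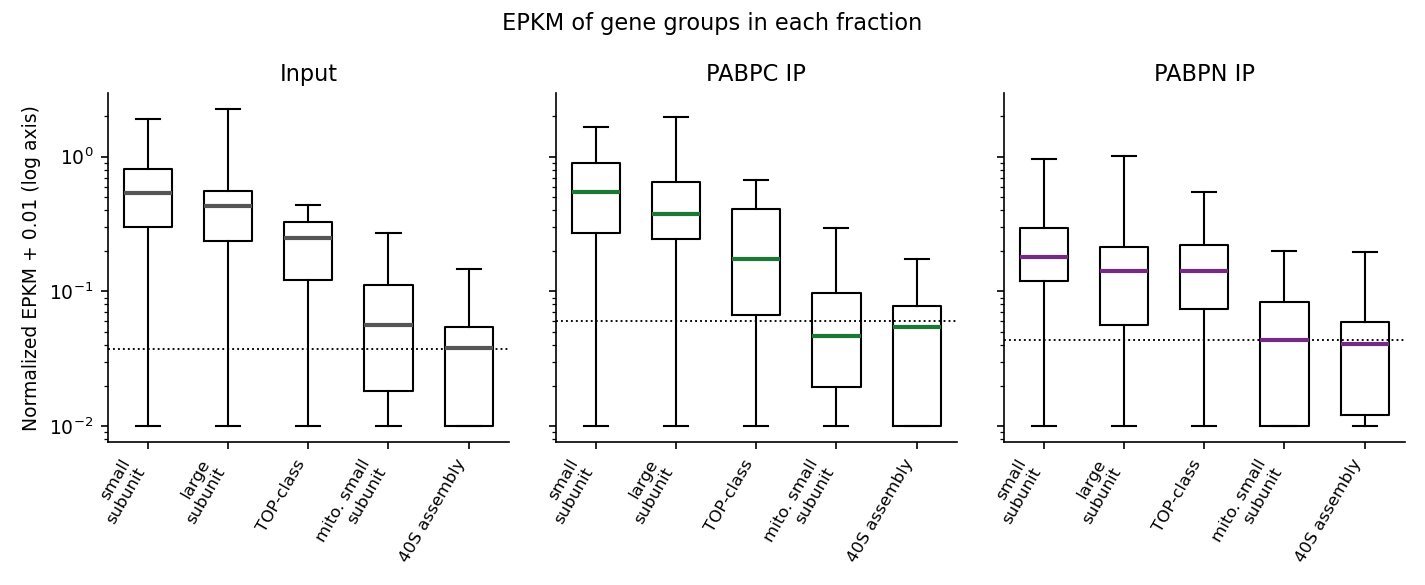
Normalized EPKM + 0.01 (log axis) in the Input, PABPC IP and PABPN IP for small-subunit (32 genes, without RPS2), large-subunit (48), TOP-class (18), mitochondrial small-subunit (32) and 40S assembly genes (14). Boxes show the quartiles and median over genes, whiskers the lowest and highest gene, and the dotted line the PCG median. The small-subunit median is the highest of the 5 groups in each fraction.

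Within the subunit, genes for head proteins (14) and for body and platform proteins (17 without RPS2) had overlapping values. The head median was 0.484 (Input), 0.487 (PABPC IP) and 0.191 (PABPN IP), and the body and platform median was 0.607 (Input), 0.669 (PABPC IP) and 0.165 (PABPN IP). EPKM was higher with PABPC than with PABPN for 13 of 14 and for 15 of 17. The 14 universal proteins, which bacteria share, had medians of 0.442 (Input), 0.487 (PABPC IP) and 0.147 (PABPN IP). The 17 without a bacterial homologue had 0.607 (Input), 0.607 (PABPC IP) and 0.235 (PABPN IP). In both, the PABPN IP median was the lowest, with 12 of 14 and 16 of 17 genes higher in the PABPC IP.

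The members have short coding sequences, from 168 to 885 bases, with a median of 436.5 against 1320 for PCGs. Across the 32 members, Spearman's rho between transcript length and EPKM was -0.104 (Input), -0.142 (PABPC IP) and -0.111 (PABPN IP). With coding length the sign was the opposite, for a cause that was not tested, at 0.146, 0.224 and 0.0974. Without RPS27L, whose transcript is the longest of the set at 6110 bases, the values over 31 members were -0.0218, -0.0667 and -0.0347 for transcript length and 0.0900, 0.177 and 0.0458 for coding length, so these weak relations rest partly on 1 gene. The C content of the coding sequence had rho of -0.0891, -0.0876 and -0.148, and -0.166, -0.170 and -0.236 without RPS27L. Exon number had rho of 0.297, 0.355 and 0.194, and 0.246, 0.310 and 0.148 without it. With the TPM of the same fraction it was 0.266, 0.343 and 0.243, and 0.200, 0.286 and 0.190 without RPS27L. Members that were high in 1 fraction tended to be high in another, with rho of 0.528 between Input and PABPC IP, 0.601 between Input and PABPN IP and 0.604 between the IPs. These are descriptions over genes of the same pooled libraries, and genes are not replicates.

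Other PCGs with short coding sequences or high TPM serve as further background for the members. The 2677 other PCGs with a coding length of at most 885 bases had a median EPKM of 0.0501 (Input), 0.0612 (PABPC IP) and 0.0336 (PABPN IP), and 57.3% were higher in the PABPC IP. The 153 PCGs outside the cytosolic ribosome with an Input TPM of at least 295, the members' lower quartile, had 0.271, 0.127 and 0.0838, and 56.2% were higher in the PABPC IP. Their centred log2 TPM ratio between the IPs had a median of 1.13, against 1.97 in the members. The share of members with a higher EPKM in the PABPC IP, 90.6%, was above both.

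Several members share sequence or position with other genes, which bears on single values. Exons of other genes on the opposite strand cover those of RPS4X (100%), RPS23 (94.0%), RPS28 (56.9%) and RPS3A (56.4%). These overlaps are those of GENCODE release 44, which is not the authors' counting annotation, and they do not show which parts of a member were counted. Of the 32 members, 10 had another gene over at least 5% of their exons, and 8 of these 10 were higher with PABPC than with PABPN. Among the other 22, 21 were. Most members have pseudogenes in the table, so the levels of single members are uncertain where near-identical copies could take their reads.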

How the data were processed

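After STAR alignment to hg38, the authors called edits at a confidence threshold and deposited the control-subtracted editing signal as normalized EPKM. How replicates and differences below 0 were handled is not stated. The deposited TPM, averaged per fraction, adds exonic and intronic values from featureCounts 2.0.2 on a GENCODE annotation without overlapping regions. Tests over replicates could not be run.

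Computed here were medians, counts, log2(EPKM + 0.01) and log2(TPM + 0.5) ratios and Spearman correlations. Members and lists were chosen with earlier results of these data known. Lists were large-subunit, mitochondrial small-subunit, TOP-class, 40S assembly, universal, non-bacterial, head, and body and platform genes, and cell markers. Named genes were RPS2, the fusion genes, RPS27 and RPS27L, members listed at 0, and others from across the range of EPKM and TPM ratio, though not every member is named. In the alternatives, a value of the same sign within a factor of 1.5 counts as unmoved. Annotation was GENCODE release 44. Software was Python 3.11.15 with matplotlib 3.10.9, pandas 2.3.3, NumPy 2.4.6 and SciPy 1.17.1.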

Additional observations from a re-analysis of the deposited data

How the results depend on the processing

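No paired analysis was possible because each fraction has 1 pooled value per gene. Leaving out replicates was not run for the same reason. Of 87 alternative values for 29 results, 56 kept their direction and stayed within a factor of 1.5, 27 moved further or are on another scale, and 4 changed sign.

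The sign changes were in the median EPKM difference between PABPC IP and PABPN IP, which was -0.131 per 1000 TPM, and in the correlation with length, which with coding length was 0.146 (Input), 0.224 (PABPC IP) and 0.0974 (PABPN IP). The cause was not tested. The ratio to TPM, added after the data were seen, also gave 14 members higher with PABPC than with PABPN, 1 higher with PABPC than in the Input, and differences of -0.707 for PABPC IP minus Input and -0.610 for PABPN IP minus Input. On that scale the small-subunit median exceeded the large-subunit median by 0.0886 (Input), 0.0838 (PABPC IP) and 0.0567 (PABPN IP). The small-subunit median per 1000 TPM was below the PCG median in each fraction, the opposite of EPKM itself. That comparison is not among the alternative values counted above.

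As log2 ratios with pseudocounts of 0.01 and 0.1, the EPKM differences were 1.40 and 1.13 (PABPC IP over PABPN IP), -0.10 and -0.082 (PABPC IP over Input) and -1.32 and -1.04 (PABPN IP over Input). After division by the PCG median of each fraction they were 4.90, -9.66 and -13.0 in the same order. PABPC IP minus Input was -0.00652 as a mean and -0.0217 over members above 0 in all 3 fractions. The ratio of members to PCGs was 9.76 in the Input from means, and with all listed PCGs 41.9 (Input), 19.4 (PABPC IP) and 8.50 (PABPN IP). The small-subunit minus large-subunit difference in the PABPN IP was 0.0638 from means. Without centring, the TPM ratio was 1.66 for PABPC IP over Input and -0.12 for PABPN IP over Input. With a threshold of 1, 2 members were enriched in the PABPC IP over the Input (0.0625% of PCGs). With a pseudocount of 0.1, 1 member was at least 2-fold lower in the PABPC IP than in the PABPN IP (3.71% of PCGs).

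The number of edits behind each EPKM and the spread between replicates are unknown, so values of single members have no measure of error. All fractions come from 1 cell line in 1 study. RPS2 levels mix the gene with the construct.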

Other observations

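Introns of ribosomal protein genes are a common home of small nucleolar RNAs. In GENCODE, 8 of the 32 members hold 1 or more snoRNA genes, among them RPSA, RPS3, RPS3A, RPS12, RPS13 and RPS20. Their median TPM was 1086 (Input), 3420.1 (PABPC IP) and 988 (PABPN IP), against 438 (Input), 1398 (PABPC IP) and 370.2 (PABPN IP) in the other 24. Their median EPKM was 0.541 (Input), 0.648 (PABPC IP) and 0.203 (PABPN IP), against 0.526 (Input), 0.487 (PABPC IP) and 0.156 (PABPN IP). Per 1000 TPM the hosts were lower in each fraction, with medians of 0.572 against 1.14 (Input), 0.319 against 0.414 (PABPC IP) and 0.313 against 0.475 (PABPN IP). EPKM was higher with PABPC than with PABPN in all 8 and in 21 of the 24. TPM adds intronic reads, and the part these take in the values of snoRNA hosts was not tested.

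The table lists 104 pseudogenes named after 26 of the 33 members, and 12 of them reached 5 TPM in each IP. RPSA had 27, the most of any member, with a summed Input TPM of 22.4 over the 19 that have a TPM, against 1728 for RPSA itself. Apart from RPS2P5, the highest pseudogene Input TPM was that of RPS28P7. It had 145 (Input), 403 (PABPC IP) and 149 (PABPN IP), against 668 (Input), 1930 (PABPC IP) and 683 (PABPN IP) for RPS28. An EPKM above 0 in at least 1 fraction was listed for 87 of the 104. The highest pseudogene EPKM in the PABPN IP was 1.02, in a copy of RPS27A whose parent had 0.246 there. The readthrough gene RPS10-NUDT3, which spans RPS10, had an EPKM of 0.0163 (Input), where RPS10 was listed at 0, 0.0633 (PABPC IP) and 0 (PABPN IP).

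RACK1, a protein bound to the head of the small subunit that the naming rule leaves out, had an EPKM of 0.0483, 0.663 and 0.0408 in the Input, PABPC IP and PABPN IP. It was chosen after its values were seen.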
